A study of Mus musculus with 15 samples.

Results

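The 10 genes described here encode large chromatin regulators and 1 kinase that works with them. They are the histone H3 lysine 4 methyltransferases Kmt2a, Kmt2b, Kmt2c and Kmt2d, the histone acetyltransferases Ep300 and Crebbp, the chromatin remodellers Srcap, Ep400 and Chd8, and the nuclear kinase Hipk2. They were 10 of the 25292 genes in the count table, all of them were expressed well enough to be tested, and they were selected on measured values, namely because their read counts were lower in explants given JTE013 with CTGF than in explants given JTE013 alone. That comparison is therefore given below as a description, with no test. Hipk2 is not itself a chromatin enzyme. By exon length in the count table, 8 of the 10 lay in the longest decile of the genes tested, which began at 7886 bases. Crebbp, with 7507 bases, and Srcap, with 4914 bases, did not.

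The study asked how signalling through S1pr2, a receptor for the lipid sphingosine-1-phosphate, acts on the embryonic mouse pancreas. RNA was sequenced from 15 libraries in 5 groups of 3, all of strain C57/Bl6J and each from organs or explants pooled within a group. Pancreata labelled wildtype (wt) or S1pr2 null were taken at 14.5 days post coitum (dpc). The null allele carries a cassette inserted in the gene, in all cells of the animal. Dorsal buds of wt embryos of the same stage were kept for 2 days at an air-liquid interface in standard medium (control), with 15 uM of the S1pr2 antagonist JTE013 (JTE), or with 15 uM JTE013 and 50 ng/ml of connective tissue growth factor, a secreted matrix protein (JTE + CTGF). No group received CTGF without JTE013. Total counts were 11402804 to 13828737 reads per library. The normalised count of S1pr2 was 762 to 772 in wt and 1263 to 1458 in the libraries labelled S1pr2 null. By western blot, the paper reports that the receptor protein was absent from pancreata of the null line. Protein cannot be read from the RNA counts used here, so every direction given for that group rests on the label. The summed level of 8 pancreatic epithelial markers was between 20947 and 38887 normalised reads in every library, and no marker of the 8 cell type lists was at 0 in a whole group. JTE library 3 stood apart from the other JTE libraries, with a chi-square per gene of 17.2 and 23.2 against them, compared with 3.01 between those 2.

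Methylation of histone H3 at lysine 4 marks promoters and enhancers in use. Kmt2a and Kmt2b act mainly at promoters and Kmt2c and Kmt2d mainly at enhancers. Ep300 and Crebbp are closely related coactivators that acetylate histones and transcription factors, and their acetylation of histone H3 at lysine 27 marks active enhancers. Srcap and Ep400 are the motors of complexes that place the histone variant H2A.Z, and Chd8 is a remodeller that binds beta-catenin and restrains its target genes. Hipk2 phosphorylates transcription factors and coactivators, among them p53, Crebbp and Ep300. In the pancreas, such enzymes act together with the transcription factors that set progenitor and acinar programmes.

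Sequence before the start site is shown for Srcap and Hipk2, the members with the largest differences, because the 10 genes were lower together with CTGF. RefSeq windows of 250 bases before the start (build GRCm38.p6) were matched for 9 of the 10 members, all but Kmt2b. Capitals mark the GC box letters GGGCGG or the same letters on the opposite strand. The Srcap window is chr7:127511733-127511982 on the plus strand. The Hipk2 window is chr6:38876191-38876440 on the minus strand. In GENCODE M21, both end outside the gene's own exons, and the Srcap window lies within 1700008J07Rik, an antisense gene on the opposite strand.
Srcap: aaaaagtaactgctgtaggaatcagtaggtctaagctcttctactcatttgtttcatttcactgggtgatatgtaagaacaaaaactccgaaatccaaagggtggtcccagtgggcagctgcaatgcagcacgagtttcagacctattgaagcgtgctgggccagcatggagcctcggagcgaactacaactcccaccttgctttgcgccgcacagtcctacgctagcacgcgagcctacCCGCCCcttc
Hipk2: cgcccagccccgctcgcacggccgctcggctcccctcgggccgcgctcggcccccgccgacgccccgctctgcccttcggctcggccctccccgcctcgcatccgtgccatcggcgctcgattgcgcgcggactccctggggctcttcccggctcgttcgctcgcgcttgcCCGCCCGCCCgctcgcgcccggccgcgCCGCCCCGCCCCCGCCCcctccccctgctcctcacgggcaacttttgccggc

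All 9 matched members had a GC box on either strand in their main window, against 32.7% of the 32851 mouse windows of this length. Those windows were not matched to the members for expression or CpG. For Hipk2 the main window was chosen as the one with more CpGs, whereas the background windows were not chosen in this way. The TATA box letters TATAAA were in none of the 9 on either strand, against 12.4% of all windows. The letters CCGGAAG, a core of ETS sites, were in none of the 9, against 6.91% of windows. CpG dinucleotides numbered from 11 in Srcap to 48 in Kmt2c, against a median of 6. More CpGs than in the Hipk2 window, which held 43, were found in 0.539% of windows, and more than in the Srcap window in 33.5%. A second start of Hipk2, with a window at chr6:38837312-38837561, held 1 CpG and no GC box. The main Hipk2 start lies upstream of its M21 start at 38876165, and the bases checked after it were not in an M21 transcript of Hipk2. Those after the second start were. These matches describe the letters of the windows and are not sites of binding. No peak or methylation data bear on them here.

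Levels were compared between genes as RPKM, the reads per kb of counted exon scaled to library size. In wt pancreata Kmt2b, at 17.2 ± 0.605 (SD, n = 3), and Crebbp, at 16.6 ± 0.269, were the highest and differed by less than the SD of Kmt2b. They were followed by Hipk2 at 14.5 ± 0.978 and Srcap at 14.3 ± 0.918, which also lay within their spread, and by Chd8 at 13 ± 0.341 and Ep300 at 12.8 ± 0.600, which did so as well. Ep400 at 9.64 ± 0.0715 was lower. The longest transcripts were the lowest, with Kmt2d at 7.0 ± 0.139, Kmt2a at 5.06 ± 0.166 and Kmt2c at 3.10 ± 0.196. With CTGF the order changed at its lower end, where Srcap at 3.20 ± 0.710 and Hipk2 at 3.03 ± 0.242 came to lie beside Kmt2a at 3.03 ± 0.405.

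Srcap and Hipk2 were the members with the largest difference between JTE + CTGF and JTE. Normalised read counts, which are counts scaled to a common library size with TMM factors, are given from here on. For Srcap they were 751, 803 and 843 in JTE and 248, 174 and 171 in JTE + CTGF, from raw counts of 710 to 906 and 144 to 217. All CTGF libraries lay far below all others in the series, whose lowest was the control library with 696. The mean was 4.04-fold lower with CTGF (log2 fold change -2.01 ± 0.10, SE of the fit), and 73 of the 16245 genes ranked at or below it. For Hipk2 they were 1089.7, 1315 and 1243 in JTE and 346, 356 and 306 in JTE + CTGF. The 3 CTGF libraries were again apart from the 12 others, and the mean was 3.62-fold lower (log2 fold change -1.85 ± 0.09, rank 98). In bulk RNA, fewer cells of a type and less RNA per cell cannot be told apart.

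**Figure D1:**
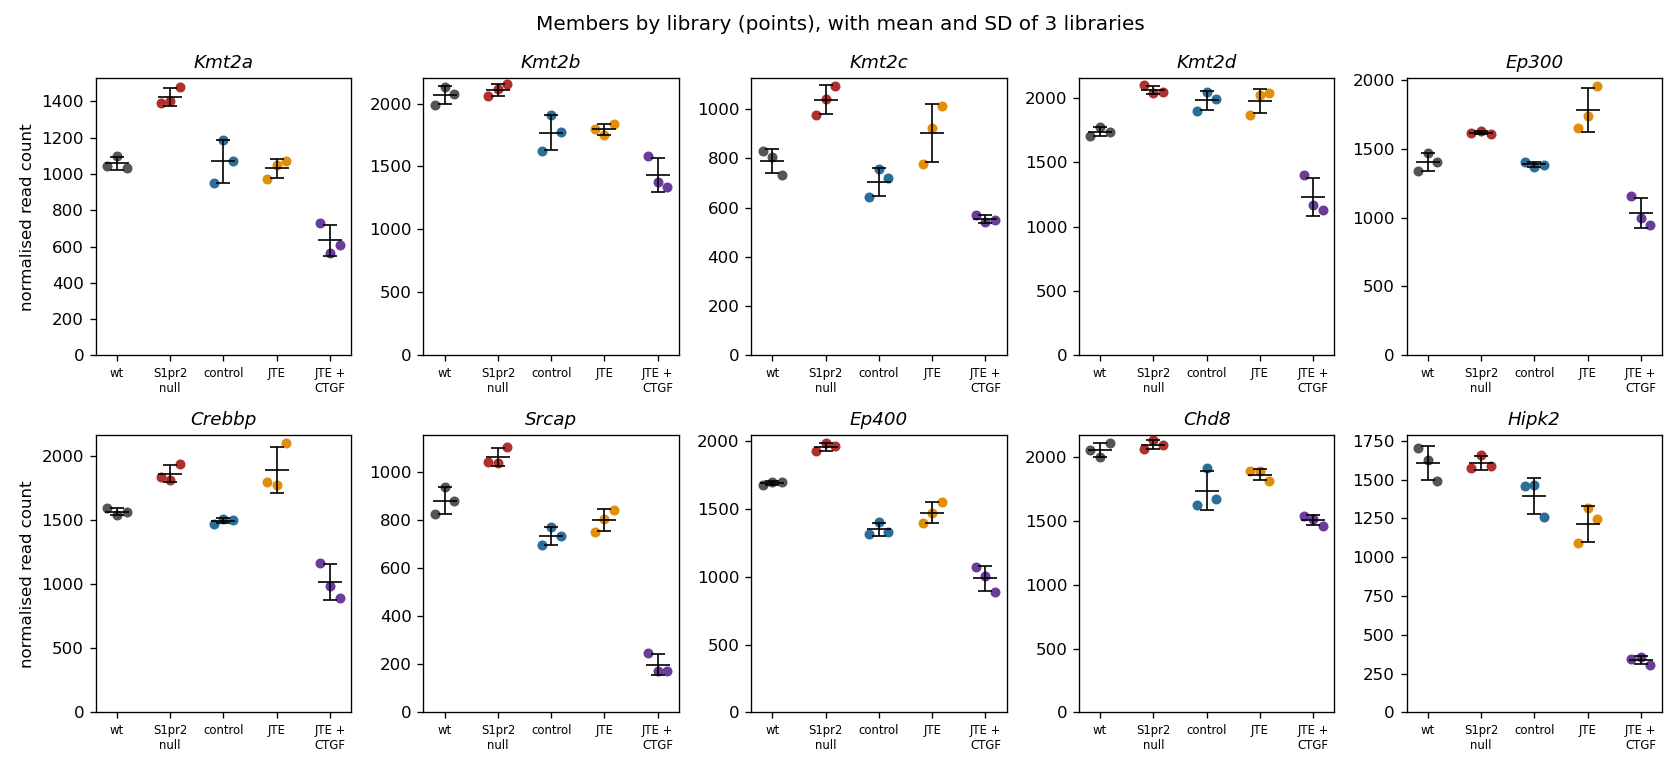
Normalised read count of each member in the 15 libraries, by group, on linear axes from 0; points are libraries, and bars give the mean and SD of 3. The JTE + CTGF libraries are the lowest of each panel, with Srcap at 171 to 248 and Hipk2 at 306 to 356 reads.

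The acetyltransferases came next. Crebbp had normalised counts of 1794, 1775 and 2096 in JTE and 1164, 987 and 894 with CTGF, a 1.86-fold lower mean (log2 fold change -0.90 ± 0.08). Ep300 had 1646, 1737 and 1958 in JTE and 1157, 998 and 948 with CTGF, a 1.72-fold lower mean (-0.78 ± 0.07). In both, JTE library 3 was the highest of the JTE group. Without it, Crebbp was at -0.78, Ep300 at -0.67, Srcap at -1.94 and Hipk2 at -1.80 on the log2 scale, and all stayed lower with CTGF.

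Among the methyltransferases, Kmt2c (-0.71 ± 0.09), Kmt2a (-0.70 ± 0.09) and Kmt2d (-0.68 ± 0.07) were lower by similar log2 amounts with CTGF. Kmt2a, for instance, read 970.2, 1051 and 1071 in JTE and 728, 565 and 609 with CTGF. Kmt2b, the paralogue of Kmt2a, differed less, at -0.33 ± 0.07, from 1751 to 1839 in JTE to 1334 to 1586 with CTGF. The remaining remodellers were Ep400, at -0.58 ± 0.06, and Chd8, at -0.31 ± 0.06. All libraries with CTGF lay below all JTE libraries in 10 of 10 members, which the choice of the members fixes in large part. The same held for 20.6% of all genes tested. The median of the members was -0.70, compared with -0.0022 over all genes tested.

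Length bears directly on this comparison. The median log2 fold change with CTGF went from 0.15 in the decile of shortest genes to -0.32 in the decile of longest genes, where 87.8% of genes were lower and 59.8% were lower in all libraries. Counts in genes over 8 kb made up 13.05% to 14.2% of each JTE library and 10.2% to 11.4% of each JTE + CTGF library, while mRNAs of ribosomal proteins, which are short, made up 1.89% to 1.94% and 2.14% to 2.36%. The 10 members were therefore set beside other genes of like length, at most 25% longer than the member or shorter by the same ratio. The 6848 genes in any of these windows had a median of -0.13, and 70.5% of them were lower with CTGF. With exon lengths from GENCODE M21 in place of those of the count table, the windows held 3373 genes with a median of -0.23, of which 80.5% were lower.

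**Figure D2:**
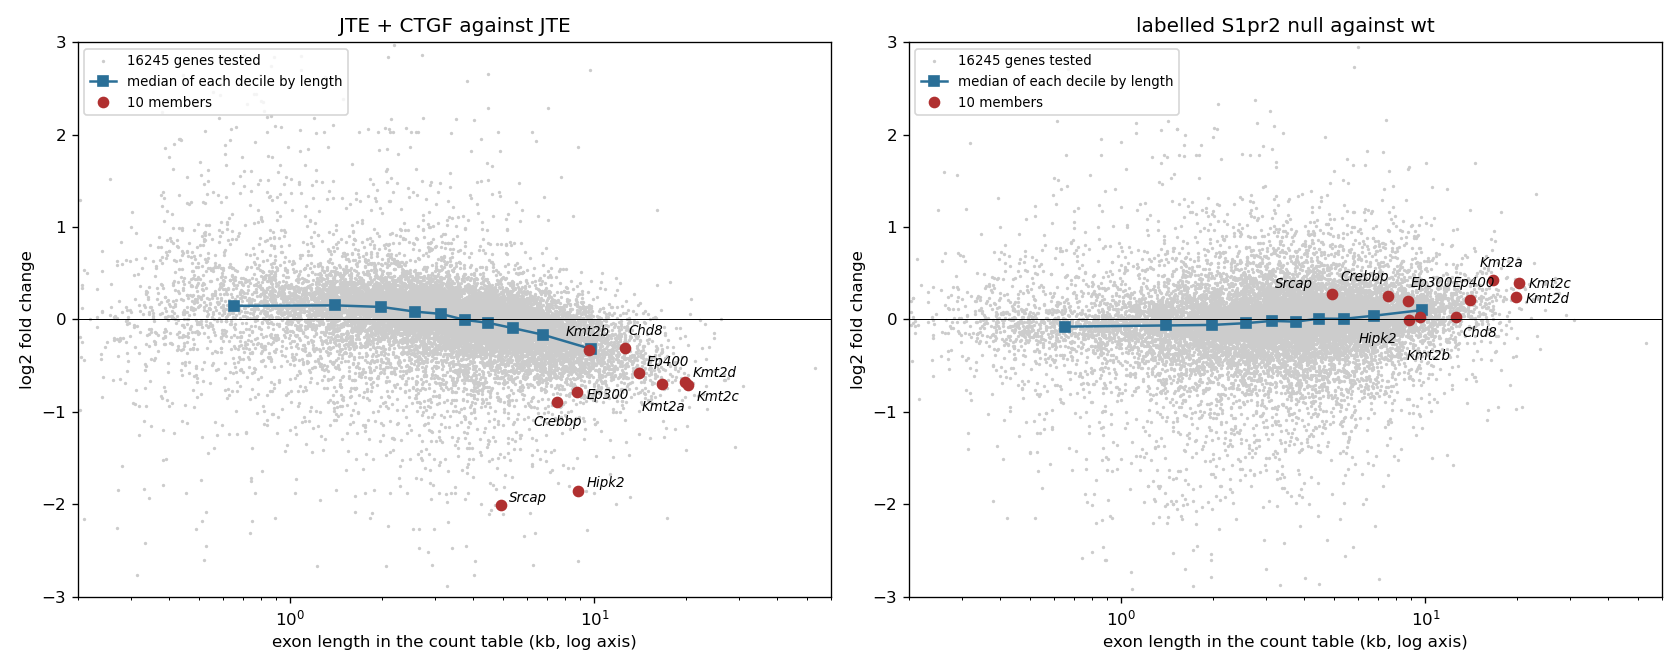
Log2 fold change of each tested gene against its exon length (kb, log axis) for JTE + CTGF against JTE (left) and for the libraries labelled S1pr2 null against wt (right); squares are medians of deciles by length, and genes beyond the axis limits are not drawn. Srcap (-2.01) and Hipk2 (-1.85) lie far below the median line on the left, which ends at -0.32, and the line has the opposite slope on the right, ending at 0.10.

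Srcap and Hipk2 stood far from genes of their length in the count table. Only 7 of 3799 genes in the Srcap window (0.184%) and 6 of 1685 in the Hipk2 window (0.356%) were lower with CTGF than the member itself, and the window medians were -0.07 and -0.24. Crebbp (3.26% of its window lower) and Ep300 (5.25%) were also in the low tail of theirs. The KMT2 genes were less apart, with 18.8% of genes in the window lower than Kmt2a, 23.5% lower than Kmt2d, 24.7% lower than Kmt2c and 42.9% lower than Kmt2b. For Ep400 the figure was 28.2%. Chd8 lay above the median of its window, with 59.4% of the 593 genes lower than it.

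Removing the length trend from every library left Srcap at -1.95, Hipk2 at -1.60, Crebbp at -0.70 and Ep300 at -0.53 on the log2 scale. The other 6 then lay between -0.22 for Kmt2a and 0.08 for Chd8, the 1 member whose sign reversed, and the median of the 10 went from -0.70 to -0.18.

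The counted exons of 4 members were shorter than their exons in GENCODE M21, an annotation of the same genome build. Srcap was counted over 4914 of 15783 bases, up to position 127536376 of chromosome 7, whereas M21 extends it to 127561219. It lies on the plus strand, so the 3' part of its M21 exons was not counted. Neither the windows by table length nor those by M21 length were matched for this. Ep300 was counted over 8749 of 14273 bases, Crebbp over 7507 of 13540 and Chd8 over 12599 of 16523. With M21 lengths, 3 of 583 genes in the Srcap window (0.515%) were lower than Srcap with CTGF, and the shares were 0.171% for Hipk2, 7.09% for Crebbp, 12.8% for Ep300 and 64.3% for Chd8. With the trend against M21 length removed, Srcap was at -1.61, Hipk2 at -1.67, Crebbp at -0.55 and Ep300 at -0.41. In M21, 63.0% of the 50-base words of Srcap transcripts also occur in another gene, and Gm42715 overlaps it on the same strand, so reads of these genes cannot be told apart there. This share is over whole M21 transcripts, and how much of it falls in the counted bases was not determined. The antisense gene 1700008J07Rik covers the first counted exon of Srcap, and since the use of strand in counting was not stated, the Srcap counts may include its reads. In the other 9 members at most 4.77% of words were shared, and no member had exon bases in common with another gene of the count table.

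Cell type markers moved between the same groups. The summed level of 8 acinar genes was 569446 to 1023940 normalised reads in JTE and 1049960 to 1194920 with CTGF, and that of 8 erythroid genes was 227 to 613 and 1335 to 2258. Sums for epithelium, endocrine cells, mesenchyme, endothelium and macrophages overlapped between these groups, and that for neural crest and Schwann cells was 2163 to 2484 in JTE and 1835 to 2071 with CTGF. Their part in the differences of the members was not tested.

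JTE013 alone was set beside control explants with the same JTE libraries that served to choose the members, so these values carry no test. Kmt2c (log2 fold change 0.36 ± 0.08), Ep300 (0.36 ± 0.07) and Crebbp (0.34 ± 0.08) were higher in all JTE libraries than in all control libraries, which held for 28.4% of all genes. Ep300, for example, read 1406, 1366 and 1384 in control and 1646, 1737 and 1958 in JTE. Without JTE library 3 the values of Kmt2c, Ep300 and Crebbp were 0.27, 0.29 and 0.26. The other 7 members overlapped between the groups, from Hipk2 at -0.20 ± 0.08 to Ep400 at 0.12 ± 0.06. Marker sums were 58588 to 67135 in control and 12071 to 15975 in JTE for endocrine cells. They were 5959 to 6103 and 2180 to 2735 for macrophages, and 6910 to 8370 and 5261 to 5900 for endothelium. For epithelium they were 34038 to 38887 and 23065 to 29083, and for mesenchyme 132657 to 139336 and 142466 to 174829. For neural crest and Schwann cells they were 2790 to 3011 and 2163 to 2484. The part of these cell types was not tested.

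Set beside control, the JTE + CTGF libraries were lower in all 10 members without overlap, as were 34.4% of all genes tested. The differences were largest for Hipk2 (-2.05 ± 0.09) and Srcap (-1.89 ± 0.10), which read 1456, 1468 and 1260.1 and 696, 771 and 735 in control. They were smallest for Chd8 (-0.21 ± 0.06), Kmt2b (-0.31 ± 0.07) and Kmt2c (-0.35 ± 0.09). Of the genes in their windows, 2.02% were lower than Hipk2 and 3.74% lower than Srcap. With the length trend removed, Kmt2c and Chd8 were higher than in control, at 0.13 and 0.10. Endocrine markers summed to 58588 to 67135 in control and 12274 to 18617 in JTE + CTGF, macrophage markers to 5959 to 6103 and 1944 to 2812, and acinar markers to 569010 to 761749 and 1049960 to 1194920. For epithelium the sums were 34038 to 38887 and 25069 to 27270, and for mesenchyme 132657 to 139336 and 158055 to 166592. For endothelium they were 6910 to 8370 and 5154 to 6086, and for erythroid cells 173 to 447 and 1335 to 2258. For neural crest and Schwann cells they were 2790 to 3011 and 1835 to 2071. The part of these cell types was not tested.

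**Figure D3:**
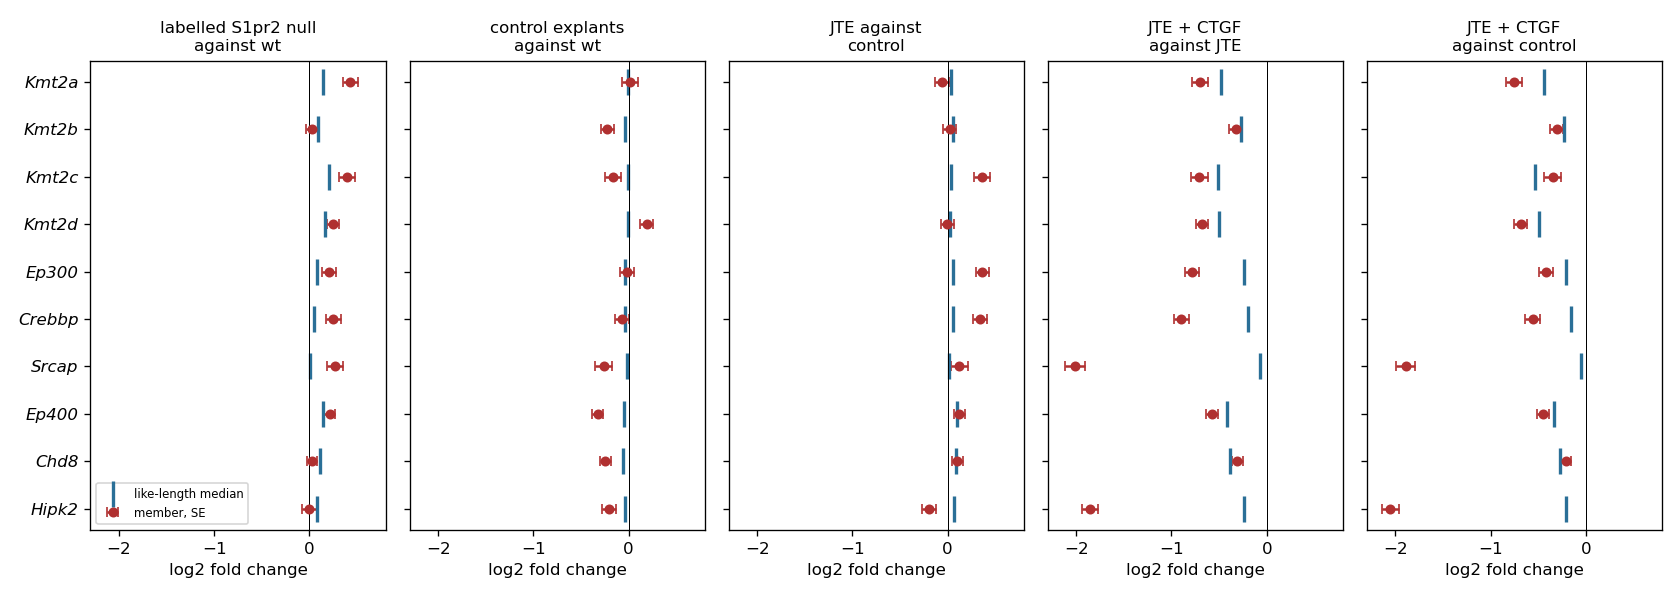
Log2 fold change of each member with its SE (circles) and the median of genes of like length (vertical marks) in 5 comparisons. In JTE + CTGF against JTE, Srcap (-2.01) and Hipk2 (-1.85) are far to the left of their marks (-0.07 and -0.24), whereas Chd8 (-0.31) is to the right of its own (-0.39).

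The libraries labelled S1pr2 null and the wt libraries took no part in the choice of the members. Here 7 of the 10 rose (edgeR quasi-likelihood test, adjusted p below 0.05 over 16245 genes) and none fell, while 12.6% of all genes were called higher and 13.3% lower. In the same 7 members all null libraries lay above all wt libraries, against 22.5% of all genes and 41.5% of the longest decile. Kmt2a rose most, from 1043, 1098 and 1033 in wt to 1389, 1403 and 1480 normalised reads (log2 fold change 0.43 ± 0.08, adjusted p = 0.000916 by edgeR). Kmt2c rose from 734 to 830.0 in wt to 976 to 1094 (0.39 ± 0.08, adjusted p = 0.00203), and Kmt2d from 1706 to 1775 to 2038 to 2102 (0.25 ± 0.06, adjusted p = 0.0094). Srcap rose from 825 to 938 to 1037 to 1105 (0.27 ± 0.08, adjusted p = 0.0255). Crebbp (0.25 ± 0.08, adjusted p = 0.022), Ep400 (0.21 ± 0.06, adjusted p = 0.0124) and Ep300 (0.20 ± 0.07, adjusted p = 0.0381) were called with smaller changes. Kmt2b (0.03 ± 0.06, adjusted p = 0.773), Chd8 (0.03 ± 0.05, adjusted p = 0.747) and Hipk2 (-0.00035 ± 0.07, adjusted p = 0.999) were not called. The count fell to 4 without wt library 3 or without null library 3, which ended the calls of Ep300, Crebbp and Srcap (adjusted p in edgeR 0.0617 to 0.0974). Ep300 and Srcap also lost theirs without wt library 1, or null library 1 or 2, and Crebbp without wt library 2 (adjusted p 0.0515 to 0.128). Over all fits with a library left out, 8.29% to 13.6% of all genes were called higher.

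Long genes were also shifted in this comparison, in the upward direction. The median by length went from -0.08 in the shortest decile to 0.10 in the longest, and counts in genes over 8 kb were 14.2% to 14.6% of wt and 15.3% to 15.7% of null libraries. In their windows, 85.7% of genes were lower than Srcap, 83.2% lower than Kmt2a, 81.8% lower than Crebbp and 80.0% lower than Kmt2c. The shares were 73.3% for Ep300, 65.7% for Kmt2d and 63.2% for Ep400. Kmt2b (38.8%), Hipk2 (35.6%) and Chd8 (33.6%) lay below the medians of their windows. With the length trend removed, 4 members were called, namely Kmt2a (0.26, adjusted p = 0.00456 by edgeR), Srcap (0.25, adjusted p = 0.0276), Kmt2c (0.20, adjusted p = 0.0244) and Crebbp (0.19, adjusted p = 0.0334). With M21 lengths 2 were called, Kmt2a and Kmt2c, and the adjusted p of Srcap was 0.157 in edgeR. The counts of 4 and 2 are not set beside the shares of all genes called in the same fits. The median of the 10 went from 0.23 to 0.09 with the trend removed. Acinar markers summed to 73178 to 123920 in wt and 25469 to 28005 in the null libraries, and endocrine markers to 28206 to 31122 and 14904 to 16771. For epithelium the sums were 26118.5 to 29062.5 and 20947 to 21972, and for mesenchyme 138641 to 140760 and 110069 to 129843. For endothelium they were 6845 to 7058 and 7351 to 7411, and for neural crest and Schwann cells 2788 to 3014 and 2407 to 2476. The part of these cell types in the calls was not tested.

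**Figure D4:**
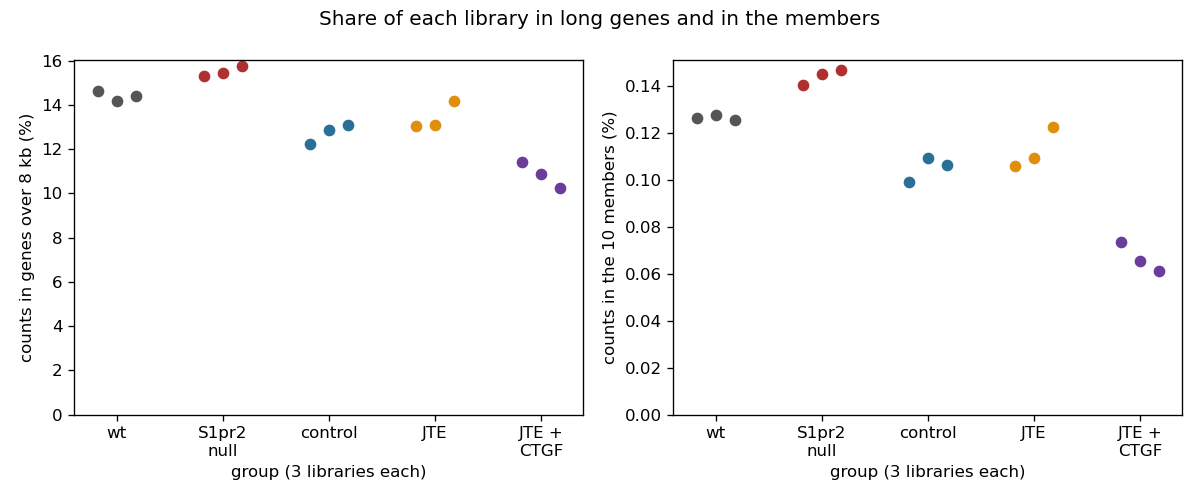
Percent of the counts of each library that fell in genes over 8 kb (left) and in the 10 members (right), by group, with 1 point per library. JTE + CTGF libraries have the lowest shares in both panels, at 10.2% to 11.4% and 0.0614% to 0.0736%, and the libraries labelled S1pr2 null the highest, at 15.3% to 15.7% and 0.141% to 0.147%.

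Between control explants and wt pancreata, 5 of the 10 members fell and 1 rose, while 29.3% of all genes were called lower and 28.5% higher. The libraries of 6 members lay wholly below wt and those of 1 wholly above, against 33.1% and 30.7% of all genes. Culture, the days of age and the use of dorsal buds cannot be told apart here. Ep400 fell from 1675, 1696 and 1698 to 1316, 1403 and 1327 (log2 fold change -0.32 ± 0.06, adjusted p = 0.000161 by edgeR). Srcap (-0.26 ± 0.09, adjusted p = 0.0169), Chd8 (-0.24 ± 0.06, adjusted p = 0.00118), Kmt2b (-0.22 ± 0.06, adjusted p = 0.00721) and Hipk2 (-0.20 ± 0.08, adjusted p = 0.0284) fell as well, so that all 3 remodellers were among the members that fell. Kmt2d rose from 1706, 1775 and 1735 to 1903, 2048 and 1996 (0.19 ± 0.06, adjusted p = 0.019). Kmt2a (0.02 ± 0.08), Kmt2c (-0.16 ± 0.08), Ep300 (-0.02 ± 0.07) and Crebbp (-0.07 ± 0.08) were not called. Left-out libraries ended 3 of the calls. Kmt2d lost its call without wt library 1 or control library 2, Srcap without wt library 2 or control library 1, and Hipk2 without wt library 1 or 2 or control library 3 (adjusted p in edgeR 0.0603 to 0.149). DESeq2 gave Hipk2 an adjusted p of 0.0519. These 6 calls were also made with the length trend removed, and the deciles by length differed little, with medians between -0.08 and 0.01. Erythroid markers summed to 14110 to 16709 in wt and 173 to 447 in control, and acinar markers to 73178 to 123920 and 569010 to 761749. For endocrine cells the sums were 28206 to 31122 and 58588 to 67135, and for macrophages 2027 to 2086 and 5959 to 6103. For epithelium they were 26118.5 to 29062.5 and 34038 to 38887. The part of these cell types was not tested.

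Another 128 chromatin regulators from 10 textbook lists show how far the 10 resemble their partners and relatives. With CTGF their median was -0.10, and 84 of the 128 were lower than in JTE, as were 50.3% of all genes tested. The 44 that were 7.5 kb or longer had a median of -0.49, with 42 lower, and the 84 shorter ones a median of -0.003, with 42 lower. All 8 other CHD remodellers, which are all long (8.02 to 19.1 kb), were lower (median -0.49). Among them were Chd4 (-0.31 ± 0.04) and Chd3 (-0.47 ± 0.05), the motors of the NuRD complex, and Chd2 (-0.50 ± 0.07). With the length trend removed, the median of the 8 was -0.20, with 7 lower. Of the SRCAP and TIP60 complexes, 6 of 17 subunits were lower. The scaffold Trrap, of 15.2 kb, was at -0.51 ± 0.06, Brd8, a bromodomain subunit, at -0.13 ± 0.05 and the short AAA ATPase Ruvbl2 at 0.08 ± 0.05, against -2.01 for Srcap.

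Of the partners and relatives of the KMT2 members, 12 of 17 were lower. The relative Kmt2e, of 7.49 kb, was at -0.91 ± 0.05, lower than each KMT2 member. The related enzymes Setd1b, of 10.9 kb, and Setd1a were at -0.68 ± 0.09 and -0.39 ± 0.07. Hcfc1, a long cofactor of 8.36 kb, was at -0.70 ± 0.07, while Psip1, which tethers Kmt2a complexes to chromatin, was at -0.11 ± 0.05 and Wdr82, a subunit of SETD1 complexes, at -0.05 ± 0.05. Of the other acetyltransferases and their coactivators, 10 of 12 were lower. Kat6a, of 9.18 kb, was at -0.91 ± 0.06, close to Crebbp, and the shorter Kat7 and Kat2a were at -0.05 ± 0.05 and -0.02 ± 0.06. The relatives of Hipk2 were at -0.36 ± 0.06 for Hipk1, -0.31 ± 0.06 for Hipk3 and -0.33 ± 0.30 for the weakly expressed Hipk4, all far smaller than its own -1.85. The median was -0.04 for SWI/SNF complexes, -0.06 for INO80 and ISWI remodellers, -0.07 for Polycomb complexes, 0.04 for deacetylase complexes and -0.28 for other lysine methyltransferases.

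**Figure D5:**
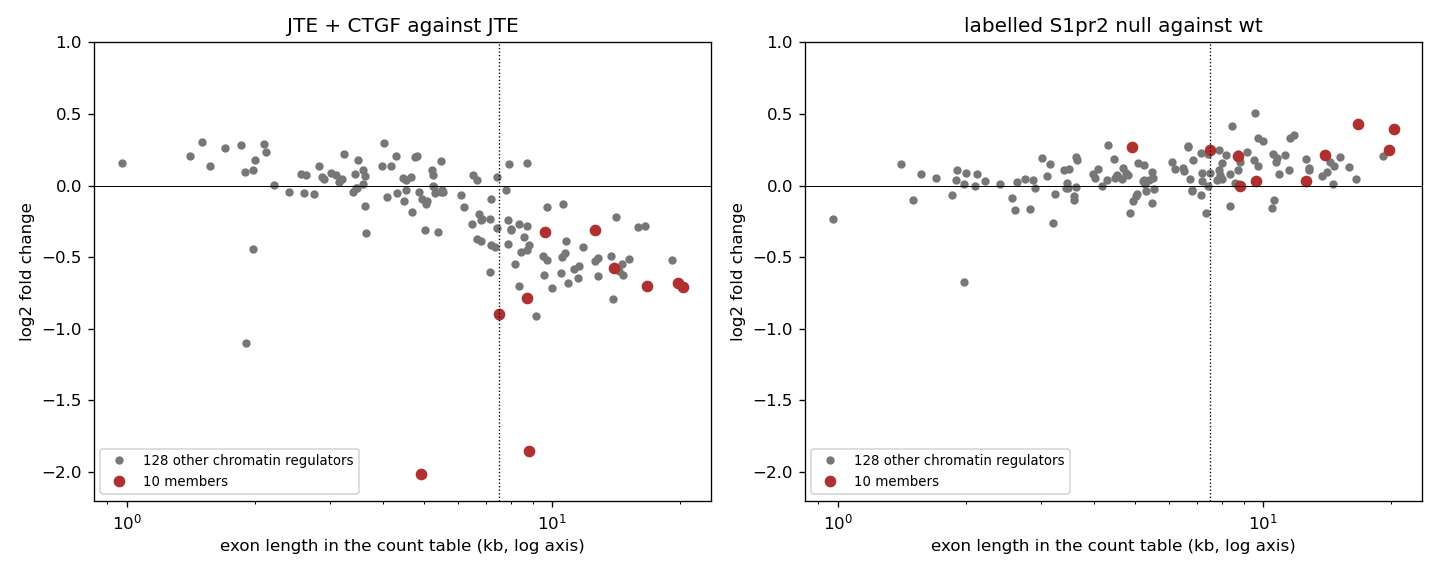
Log2 fold change of 128 other chromatin regulators (grey) and the 10 members (red) against exon length (kb, log axis), for JTE + CTGF against JTE (left) and libraries labelled S1pr2 null against wt (right); the dotted line is at 7.5 kb. On the left the 44 regulators right of the line have a median of -0.49 and the 84 left of it a median of -0.003, and Srcap and Hipk2 lie below all of them.

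In the libraries labelled S1pr2 null, 28 of the 128 rose and 2 fell against wt (edgeR, adjusted p below 0.05), beside 12.6% of all genes called higher and 13.3% lower. Length entered here as well, with 17 higher and 7 lower once the trend was removed. The share of all genes called in that fit is not set beside these counts. Of the CHD remodellers 5 of 8 rose, with Chd3 at 0.42 ± 0.05 (adjusted p = 8.22e-06 by edgeR) and Chd4 at 0.16 ± 0.04 (adjusted p = 0.0118). Wdr82 (0.28 ± 0.05, adjusted p = 0.000428), Kat6a (0.23 ± 0.06, adjusted p = 0.00755), Trrap (0.20 ± 0.06, adjusted p = 0.0287) and Psip1 (0.16 ± 0.05, adjusted p = 0.0263) rose too. None of the 3 other HIPK kinases was called. In control explants 60 of the 128 fell and 10 rose against wt, including 8 of 17 subunits of the SRCAP and TIP60 complexes and 10 of 17 of SWI/SNF complexes that fell, beside 29.3% of all genes called lower and 28.5% higher. Ruvbl2 was at -0.55 ± 0.05 (adjusted p = 1.13e-07 by edgeR) and Chd3 rose by 0.23 ± 0.05 (adjusted p = 0.000527).

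Across the 15 libraries, each member followed the mean profile of the other 9 with a Pearson r between 0.865 for Ep300 and 0.988 for Srcap. Among 11438 other genes with a mean of at least 100 normalised reads, the profiles most like the mean of the members were those of Huwe1, a ubiquitin ligase of 23.5 kb (r = 0.994), Spen, a transcriptional corepressor (0.994), Prrc2c, an RNA-binding protein (0.993), Kat6a (0.987), and Bptf, the largest subunit of the NURF remodeller (0.987). The next were Zfp871, Arid1a, a DNA-binding subunit of SWI/SNF complexes, Birc6, Tead1, a partner of YAP, and Bcl9l, a cofactor of beta-catenin (0.986 to 0.984). Mean normalised counts of Huwe1 were 4791 in wt, 5599 in the null group, 4116 in control, 4846 in JTE and 2476 with CTGF. The 10 genes were 5.30 to 23.5 kb long. The 15 points share group means and the shift of long genes. They also include the JTE and JTE + CTGF libraries on which the members were chosen as lower with CTGF, which fixes part of each r. These values therefore describe likeness only.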

How the data were processed

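Poly(A) RNA of 15 libraries was sequenced after a strand-specific preparation. The authors aligned the reads to mm10 and deposited raw read counts per Ensembl gene, made with featureCounts 1.4.6 per the labels; whether the counting used strand was not given in the sources used here. The counts were not normalised, and no other value columns were used. Members were found by matching gene IDs to GENCODE M21 symbols, which 24750 of 25292 IDs had.

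Counts were fitted in R 4.3.3 with edgeR 4.0.16 (quasi-likelihood, TMM, filterByExpr, 1 coefficient per group, all 15 libraries, no covariate), and p-values were adjusted by Benjamini-Hochberg over 16245 genes, with calls at 0.05. The p-values measure the spread between pooled samples, and the depth given above limits them through counting error only for weak genes. The members and lists were chosen with earlier results of these data known, and the hand-written lists were drawn from textbook complexes. The genes named were the 10 members, the 10 other genes with the most similar profile, and up to 3 of the best expressed genes of each of the lists that hold relatives or partners of a member. Kmt2e, Setd1a and Setd1b were named in addition, as relatives of the KMT2 members. JTE against control and JTE + CTGF against control share libraries with the comparison that chose the members, so they carry no test.

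The length trend was removed with a loess curve per library (span 0.3) on log2 counts plus 0.5. Alternatives were other size factors, DESeq2 1.42.0, no filter, only the libraries compared, a block by replicate number, length windows of 1.5 and each library left out. The use of M21 lengths was chosen after seeing the data. On simulated counts, 196 of 200 genes changed by 1.5-fold or more were called in S1pr2 null against wt, as were 9 unchanged genes. The members changed by less in that comparison, so the simulation does not measure how often changes of their size are called. Plots used matplotlib 3.10.9.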

Additional observations from a re-analysis of the deposited data

How the results depend on the processing

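Length was the choice that mattered most. With the length trend removed, the median log2 fold change of the 10 members went to 0.093 in S1pr2 null against wt, -0.18 in JTE + CTGF against JTE, 0.035 in JTE against control and -0.23 in JTE + CTGF against control, and with M21 lengths in that step, chosen after seeing the data, to 0.095, -0.24, 0.024 and -0.23. Members called higher in S1pr2 null against wt went from 7 to 4, and to 2 with M21 lengths, without the share of all genes called in these fits beside them. Of the other chromatin regulators, 17 were then called higher and 7 lower, with medians of 0.039 in that comparison, -0.031 in JTE + CTGF against JTE, -0.029 in JTE against control and -0.048 in JTE + CTGF against control. The signs that reversed, first with the trend by table length removed and then by M21 length, were those of Kmt2b (-0.067, -0.039) and Chd8 (-0.10, -0.11) in S1pr2 null against wt, Ep300 in control against wt (0.0041, 0.0075), Chd8 in JTE + CTGF against JTE (0.078, 0.12) and against control (0.10, 0.13), and Kmt2c in the latter (0.13, 0.064).

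The medians of genes of like length also moved. With the trend removed they were -0.0077 in S1pr2 null against wt, -0.0011 in JTE + CTGF against JTE, -0.016 in JTE against control and -0.022 in JTE + CTGF against control, and with windows by M21 length 0.072, -0.23, 0.065 and -0.19. Upper quartile factors gave 0.021 in S1pr2 null against wt and -0.0021 in JTE against control, where RLE factors gave 0.012 and DESeq2 0.013. In control against wt they were -0.0053 with RLE factors, -0.0058 with DESeq2, -0.00027 without a filter and -0.0030 with only the libraries compared, and in JTE + CTGF against control -0.087 without a filter and -0.089 with only the libraries compared. Values near 0 changed sign for Hipk2 in S1pr2 null against wt (0.0023 with RLE factors, 0.0037 with DESeq2, 0.0058 with only the libraries compared) and for Ep300 in control against wt (0.0044 without a filter, 0.00066 with only the libraries compared).

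The replicate numbers did not pair the samples, since correlations of same-numbered deviations ranged from -0.079 to 0.21. A replicate block left 6 members called higher in S1pr2 null against wt, beside 12.1% of all genes, Ep300 being lost, and gave Hipk2 0.00073.

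With 1 library left out, 4 to 7 members were called higher in S1pr2 null against wt, beside 8.29% to 13.6% of all genes. In control against wt, 0 to 1 members were called higher and 3 to 5 lower, beside 25.6% to 30.5% and 25.9% to 29.4% of all genes. The median of the members there ranged from -0.23 (without control library 2) to -0.13 (without control library 1). Genes of like length ranged from -0.034 (without control library 2) to -0.0024 (without JTE library 3) in control against wt, from -0.16 (without JTE + CTGF library 1) to -0.093 (without JTE library 3) in JTE + CTGF against JTE, and from -0.15 to -0.088, without the same libraries, in JTE + CTGF against control. Values that changed sign ranged from -0.051 to 0.045 for Hipk2 in S1pr2 null against wt, and in control against wt from -0.063 to 0.095 for Kmt2a and from -0.051 to 0.016 for Ep300. DESeq2 ended the call of Hipk2 in control against wt, with -0.19, and called fewer genes in all, 7.5% higher and 7.54% lower in S1pr2 null against wt and 17.9% and 16.5% in control against wt. Without a filter these shares were 7.81% and 8.63%, and 17.5% lower in control against wt. The raw counts of the members exceeded 100 in each library. They were lowest for Srcap in JTE + CTGF, at 144 to 217, where counting error is a larger part of the spread.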
